A study of Mus musculus with 2 samples.

Results

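Migratory mature dendritic cells (mature DCs) were followed in mouse dorsal skin profiled by single-cell RNA-seq, in 1 control (Ctrl) library and 1 library of the atopic dermatitis (AD) model. They were chosen by their counts: a barcode had to hold at least 1 UMI of the leukocyte gene Ptprc and at least 4 UMIs of Ccr7, Fscn1, Cacnb3 and Ccl22 together, with at least 2 of these 4 genes found. It also had to hold fewer than 3 UMIs of the macrophage genes C1qa, C1qb and C1qc, and 0 UMIs of the T cell genes Cd3e, Cd3d and Cd3g and of the fibroblast gene Pdgfra. A UMI is a distinct transcript molecule. The rule found 50 cells among 19578 kept barcodes, 22 of 11399 in Ctrl and 28 of 8179 in AD. Kept barcodes have 200 to 6000 genes and at most 10% mitochondrial UMIs.

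Both libraries came from female C57BL/6J mice aged 7 weeks, with the back depilated a day earlier. Ctrl skin received ethanol alone every day. AD skin received MC903, an analogue of vitamin D that induces dermatitis, at 4.5 nmol per application, and both were taken on day 10. The action of MC903 on the cells themselves and the dermatitis that follows it cannot be told apart in this design. How many mice stand behind a library is not given in the sources used here.

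In all, 125184653 UMIs over 12598 barcodes were deposited for Ctrl and 76106062 over 8778 for AD. The mature DCs supplied 199294 UMIs in Ctrl and 432258 UMIs in AD. A Ctrl cell had a median of 8316.5 UMIs (4840 to 22302) and an AD cell a median of 15660 (855 to 27096), so a rare transcript was easier to find in an AD cell. With 1 library per condition no test between conditions was possible. Every interval is a 95% interval for counting error only, taken as exact Poisson (levels), Clopper-Pearson (shares) or exact conditional (ratios). The libraries shared 35 barcode sequences, and 1 of them was a Ctrl mature DC.

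Dendritic cells take up antigen in the skin and, once activated, mature, raise Ccr7 and migrate through lymphatic vessels to the draining lymph node, where they present antigen to T cells. Ccr7 is the receptor that guides this migration, Fscn1 bundles actin in the dendrites, Cacnb3 is a calcium channel subunit, and Ccl22 attracts cells that bear Ccr4, as Ccl17 does. Maturation is known to bring NF-kB target genes, costimulatory molecules and survival genes, while the uptake of antigen declines.

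Ccl22, whose UMIs helped to choose the cells, and Ccl17, which did not, lie close together on mouse chromosome 8, at 94745590 to 94751699 and 94810453 to 94812036 on the plus strand of GRCm38. Il12b, which encodes the p40 subunit of IL12 and IL23, lies on chromosome 11 at 44400063 to 44414033 on the plus strand. The bases ahead of these 3 genes are shown because they are the regulatory sequence of the chemokines that mark the cells and of the cytokine gene with most of its AD UMIs in them. They are the entries of RefSeq for build GRCm38.p6, of which 3 of 5 symbols looked up (Ccl22, Ccl17, Il12b, Ccr7 and Cyp24a1) matched. Capitals mark, in Ccl22, the letters GGG, any 5 bases and CC, a loose form of the NF-kB motif, which on the other strand reads GG, any 5 bases and CCC. In Ccl17 they mark TTC, any 4 bases and GAA, a form of the STAT6 motif that reads alike on both strands.
Ccl22, chr8:94745434-94745589, plus strand: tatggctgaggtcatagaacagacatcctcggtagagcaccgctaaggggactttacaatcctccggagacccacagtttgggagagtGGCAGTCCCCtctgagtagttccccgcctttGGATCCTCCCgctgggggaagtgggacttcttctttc
Ccl17, chr8:94810203-94810452, plus strand: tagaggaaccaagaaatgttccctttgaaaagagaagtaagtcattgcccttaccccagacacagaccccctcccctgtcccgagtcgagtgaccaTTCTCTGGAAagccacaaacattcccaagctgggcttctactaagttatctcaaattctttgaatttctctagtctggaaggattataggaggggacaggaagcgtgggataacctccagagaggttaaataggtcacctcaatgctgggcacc
Il12b, chr11:44399813-44400062, plus strand: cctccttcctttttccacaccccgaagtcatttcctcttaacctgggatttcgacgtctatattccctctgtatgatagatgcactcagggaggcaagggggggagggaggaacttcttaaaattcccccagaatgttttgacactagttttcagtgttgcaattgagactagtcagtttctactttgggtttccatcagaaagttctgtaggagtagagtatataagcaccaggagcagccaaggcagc
The 156 bases ahead of Ccl22 held 2 matches of the NF-kB letters. At least 1 match was held by 28.8% of 32851 promoters in a window of that length. The 250 bases ahead of Ccl17 held 1 match of the STAT6 letters, which 5.85% of promoters hold, and none of the NF-kB letters, which 45.8% hold. The window of Il12b held neither. A match says only that the letters occur.

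The rule set the levels of its own genes, which are given as a description. The 4 genes together had 4 to 359 UMIs per cell in Ctrl, with a median of 58.5, and 7 to 239 in AD, with a median of 133.5. Ccr7 had 0 to 52 UMIs in a Ctrl cell (median 13) and 1 to 116 in an AD cell (median 46.5), or 2107 and 3371 UMIs per 1000000 UMIs (CPM) of the pooled cells. Ccl22 had 0 to 255 UMIs in Ctrl (median 12) and 0 to 95 in AD (median 17). Its pooled level was 3773 CPM in Ctrl and 1649 CPM in AD, and 1 Ctrl cell held 255 of the 752 Ctrl UMIs. The pooled levels of Fscn1 were 2002 and 2295 CPM, and those of Cacnb3 442 and 372 CPM.

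The edges of the rule were checked once. Under the other conditions of the rule, 6 Ctrl barcodes and 0 AD barcodes had 3 UMIs of the 4 genes and so fell just outside. A further 14 Ctrl and 5 AD barcodes had at least 4 UMIs but of a single gene, which was Ccr7 in 11 and 4 of them. These held a median of 238 and 195 UMIs of the class II genes H2-Aa, H2-Ab1 and H2-Eb1. Just inside, 4 Ctrl cells and 1 AD cell had 4 to 7 UMIs, with medians of 243 and 0 class II UMIs. All 4 genes were found in 14 Ctrl cells (of 22) and 23 AD cells (of 28). The condition on the 4 genes alone was met by 305 Ctrl and 90 AD barcodes, of which 257 and 53 had no Ptprc.

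The mature DCs were 0.193% of kept barcodes in Ctrl (0.121 to 0.292%) and 0.342% in AD (0.228 to 0.494%). These intervals overlap, and the shares are of dissociated skin in which every other cell type also sets the denominator.

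Genes that the rule did not use were checked against the name. Cd83, a surface marker of maturation, was found in 21 of 22 Ctrl and 27 of 28 AD cells. Tbc1d4, a Rab GTPase activator known from mature DCs, was found in 19 and 26, Samsn1 in 21 and 26, Traf1 in 20 and 27, Relb, an NF-kB subunit needed for DC development, in 18 and 25, and Il4i1, a secreted amino acid oxidase, in 17 and 22. The DC genes Flt3, a growth factor receptor, and Zbtb46, a transcription factor, were found in 14 and 8 Ctrl cells and in 20 and 20 AD cells. Flt3 thus had a UMI in 63.6% and 71.4% of mature DCs, against 0.331% and 0.283% of T cells (kept barcodes with at least 2 UMIs of the Cd3 genes, 604 in Ctrl and 353 in AD). After a random draw of 4000 UMIs from each cell Flt3 was found in 45.5% and 44.4% of mature DCs, against at most 0.571% of the T cells of either library. The comparison with T cells does not separate mature DCs from other DCs. Other usual markers were scarce or missing, with UMIs of Itgax (CD11c) in 2 Ctrl and 3 AD cells and of Lamp3 in none. The name thus held for most of the cells and not for all.

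Markers of other cells were scarce with a few exceptions. The T cell list had 6 UMIs in Ctrl and 19 in AD over 10 genes, 5 and 7 of them at 0, led by Trbc2 and Cd8a. The granulocyte and mast cell list had 2 and 3 UMIs over 10 genes, 8 of them at 0 in each library. The list of endothelium and pericytes had 9 and 6 over 8 genes, 6 and 5 of them at 0. The keratinocyte list of 10 genes summed to 1445 CPM (1283 to 1622) in Ctrl and 34.7 CPM (19.4 to 57.2) in AD, with Krt17 the most abundant in Ctrl and Krt14 in AD. A single Ctrl cell held 252 of the 288 Ctrl UMIs. That cell had 22302 UMIs, 5 UMIs of the 4 rule genes with neither Ccr7 nor Ccl22, and 1 class II UMI, so its counts went against the name. In AD, 1 cell of 26647 UMIs held 53 of the 59 UMIs of the list of B and plasmacytoid cells, led by Cd79a. The fibroblast list of 10 genes summed to 788 CPM in Ctrl and 120 CPM in AD, and the macrophage list of 13 genes, 6 and 4 of them at 0, to 983 and 174 CPM, led by Apoe in Ctrl and Lyz2 in AD. The innate lymphoid list of 8 genes summed to 326 and 236 CPM, led by Il7r in both. Of the T cell, B cell, granulocyte and endothelial lists 0 genes reached 100 CPM. The macrophage, fibroblast and keratinocyte lists had 2, 4 and 4 genes past it, all of which reached 100 CPM in Ctrl alone and so had to be lower in AD, and the innate lymphoid list had Il7r, at 246 and 164 CPM. What these transcripts contributed to the other differences was not tested, but values without the keratinocyte-rich and the B cell-rich cell are given for some of the genes below.

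**Figure D1:**
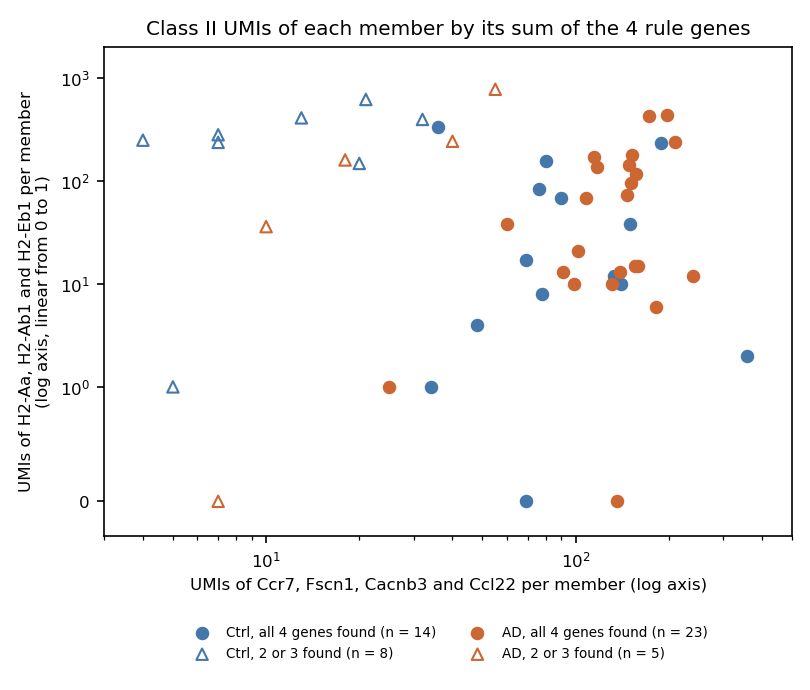
Each point is 1 mature DC, by its UMIs of the 4 rule genes (x axis, log) and of the class II genes H2-Aa, H2-Ab1 and H2-Eb1 (y axis, log above 1). Filled circles have all 4 rule genes (14 Ctrl, 23 AD) and open triangles 2 or 3 of them (8 Ctrl, 5 AD). Most triangles lie high on the class II axis, while circles spread from 0 to 434 UMIs.

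The cells differed among themselves, as the plot of class II UMIs against the rule genes shows. Class II UMIs ran from 0 to 619 per cell in Ctrl (median 76.5) and from 0 to 777 in AD (median 53.5). H2-Aa stood at 4006 CPM in the 14 Ctrl cells with all 4 rule genes and at 10735 CPM in the 8 with 2 or 3. In AD it stood at 3202 and 8920 CPM. Il1b, an inflammatory cytokine, was also higher in the cells with 2 or 3 genes, at 3494 against 924 CPM in Ctrl and 6515 against 853 CPM in AD. In AD, 1 cell held 334 of the 409 Il1b UMIs of the cells with 2 or 3 genes. Mgl2 and Cd209d, lectin genes of dermal DCs, followed Il1b in Ctrl, with Mgl2 at 507 against 8.88 CPM and Cd209d at 288 against 0 CPM. Samsn1, Epsti1 and Irf8 lay the other way in both libraries, with Epsti1 at 1555 against 92.2 CPM in Ctrl and 1269 against 47.8 CPM in AD. The split rests on rule genes, so these values describe the choice of cells, and cells with fewer genes found include the keratinocyte-rich cell and the shallow AD cell of 855 UMIs. Since fewer Ctrl than AD cells had all 4 genes, main ratios are also given for those cells alone, an alternative chosen after seeing the data.

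Beyond the rule genes, 20 genes stood highest over all other kept barcodes in both libraries. They included Tbc1d4, Ccl17, the protease inhibitors Serpinb6b and Serpinb9, Il4i1, Epsti1, Samsn1, Ccl5, the protease Mmp25, the signalling adaptor Traf1, the uptake receptor Ly75 (DEC205), and Bcl2a1a, Bcl2a1b and Bcl2a1d, survival genes of near-identical sequence whose counts may be split among them. Cd83, H2-Aa, H2-Eb1, Zmynd15, Itga4 and Sema7a completed them. Tbc1d4 stood at 1681 CPM in Ctrl and at 1656 CPM in AD, against 24.6 CPM in other kept barcodes of either library. Il4i1 stood at 452 and 555 CPM, against 1.31 and 2.03 CPM. This is how the chosen cells look and not a test, because the same counts chose them.

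Ccl17, the partner of Ccl22 on chromosome 8, was found in 11 Ctrl cells (0 to 33 UMIs, median 0.5) and 19 AD cells (0 to 118 UMIs, median 3). Its pooled level was 447 CPM (359 to 550) in Ctrl and 659 CPM (585 to 740) in AD (log2 ratio of AD over Ctrl 0.56, 0.21 to 0.92), and the cells of the libraries overlapped. In Ctrl the mature DCs, 0.193% of kept barcodes, held 89 of its 146 UMIs (61.0%, 52.6 to 68.9%). In AD they held 285 of 634 UMIs (45.0%, 41.0 to 48.9%). The other leukocytes used for comparison were macrophages (at least 3 UMIs of the C1q genes, 279 and 132 cells) and other MHC class II leukocytes (at least 20 UMIs of the 3 class II genes and the rule's other limits, without its condition on 4 genes, 320 and 44 cells). Other MHC class II leukocytes carried 7.36 CPM of Ccl17 in Ctrl and 238 CPM in AD, and macrophages 17.1 and 85.5 CPM.

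To compare AD with Ctrl cells, UMIs were pooled over the cells of a library, and the 1754 genes that reached 100 CPM in Ctrl or AD were compared as log2(CPM + 1). Over these genes the median log2 ratio was -0.08, with quartiles at -0.60 and 0.46. In AD 185 genes (10.5%) were at least 2-fold higher and 216 (12.3%) at least 2-fold lower. Without the keratinocyte-rich and the B cell-rich cell there were 181 and 197. In the cells with all 4 rule genes there were 230 and 239. A count of genes in a list below is to be read against 10.5% and 12.3%. A gene that reached 100 CPM in 1 library alone had to differ to pass, which was so for most of the genes that passed in the cytokine, vitamin D, Langerhans, cDC2 and interferon lists (4 of 5, 2 of 3, 3 of 4, 4 of 7 and 5 of 9), for 3 of 7 chemokine ligands, 6 of 12 lipid genes, 5 of 17 immediate early genes, 5 of 17 cytoskeleton genes, 4 of 10 type 2 signal genes, 2 of 8 costimulation genes and 2 of 11 class II genes. It was also so for the 1 retinoid gene that passed and for 1 gene each of the maturation, DC core, cDC1, antigen uptake and cell cycle lists.

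**Figure D2:**
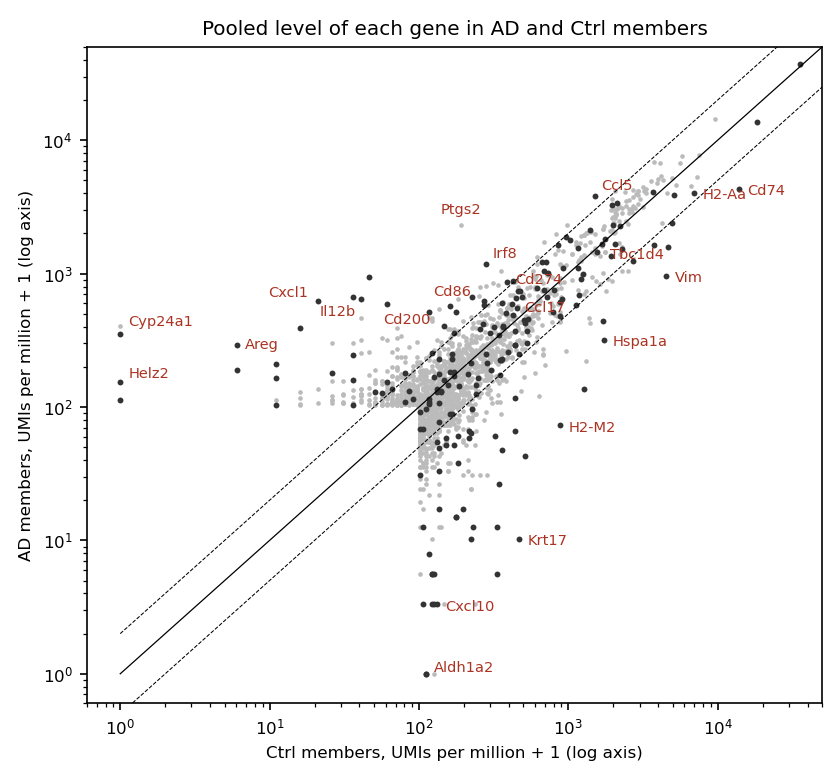
Pooled CPM + 1 of each of the 1754 compared genes in Ctrl (x axis, log) and AD (y axis, log) mature DCs. Black points belong to the gene lists or the named genes and grey points are all others. The solid line is equality and the dashed lines are 2-fold. Cyp24a1, Helz2 and Il6 are among the points on the left edge with 0 Ctrl UMIs, and Aldh1a2 lies on the bottom edge with 0 AD UMIs.

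Genes of the maturation programme lay close to level. Of 30 genes, 25 passed the level filter, and 3 were at least 2-fold higher, 0 lower and 22 between, with a median log2 ratio of 0.15. Cd83 stood at 1249 and 995 CPM, Marcksl1, which binds actin at the membrane, at 507 and 446 CPM, and Relb at 221 and 213 CPM. The 3 that were higher were Serpinb9, an inhibitor of granzyme B (427 and 877 CPM), Birc2, an inhibitor of apoptosis (271 and 627 CPM), and the chemokine Ccl5. For Ccl5, 1500 and 3813 CPM, a single AD cell held 985 of 1648 AD UMIs, and without the top cell of each library the log2 ratio went from 1.34 to 0.38. In cells with all 4 rule genes the median of the list was -0.16, and the ratios of Serpinb9 (0.65), Birc2 (0.78) and Ccl5 (0.98) were all under 2-fold.

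Costimulation and checkpoint genes, which set how a T cell responds to the antigen shown to it, were more often past 2-fold as higher than as lower in AD. Of 17 genes 8 passed, and 5 of them were at least 2-fold higher and 0 lower, with a median of 1.36. Among these 5, Cd200 and Tnfsf4 reached 100 CPM in AD alone, so they had to be higher to pass, which also raises the median. Cd86, the ligand of CD28, had 0 to 6 UMIs in a Ctrl cell (median 1) and 0 to 23 in an AD cell (median 6.5). No Ctrl cell reached 10 UMIs and 10 AD cells did, although the ranges overlapped at the low end. Pooled, Cd86 stood at 161 CPM (110 to 227) in Ctrl and 569 CPM (500.2 to 645) in AD (log2 ratio 1.82, 1.29 to 2.40), and the ratio was 2.12 in the cells with all 4 rule genes. Cd86 was 226 and 244 CPM in macrophages and 190 and 265 CPM in other MHC class II leukocytes.

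Cd200, an inhibitory ligand of myeloid cells, had 0 to 4 UMIs in Ctrl cells (median 0) and 0 to 29 in AD cells (median 6.5). It was found in 6 and 23 cells and stood at 60.2 and 595 CPM (log2 ratio 3.28, 2.47 to 4.28). Cd274, which encodes PD-L1, had 0 to 13 UMIs in Ctrl (median 2.5) and 0 to 51 in AD (median 10.5). Its levels were 386 CPM (305 to 483) and 861 CPM (775 to 953). The log2 ratio was 1.15 (0.80 to 1.53), and 0.89, under 2-fold, in the cells with all 4 rule genes. PD-L1 transcripts were also higher in AD in macrophages, at 80.2 and 325 CPM, and in other MHC class II leukocytes, at 34.2 and 291 CPM.

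Tnfsf4, which encodes OX40L, was found in 1 Ctrl cell with 5 UMIs and in 9 AD cells with up to 17 UMIs each, at 25.1 and 178 CPM. In AD, mature DCs held 77 of its 95 UMIs in kept barcodes (81.1%, 71.7 to 88.4%). Icam1, which steadies contact with T cells, stood at 226 and 671 CPM. The other 3 genes that passed were Cd80, the second ligand of CD28, at 135 and 227 CPM, Tnfsf9 (4-1BBL) at 266 and 421 CPM, and Cd40 at 241 and 146 CPM. In the cells with all 4 rule genes Tnfsf9 was at 115 and 479 CPM (log2 ratio 2.04) and Cd40 at 364 and 149 CPM (log2 ratio -1.29), so that Tnfsf9 passed 2-fold as higher and Cd40 as lower. Ido1 had no UMI in either library.

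**Figure D3:**
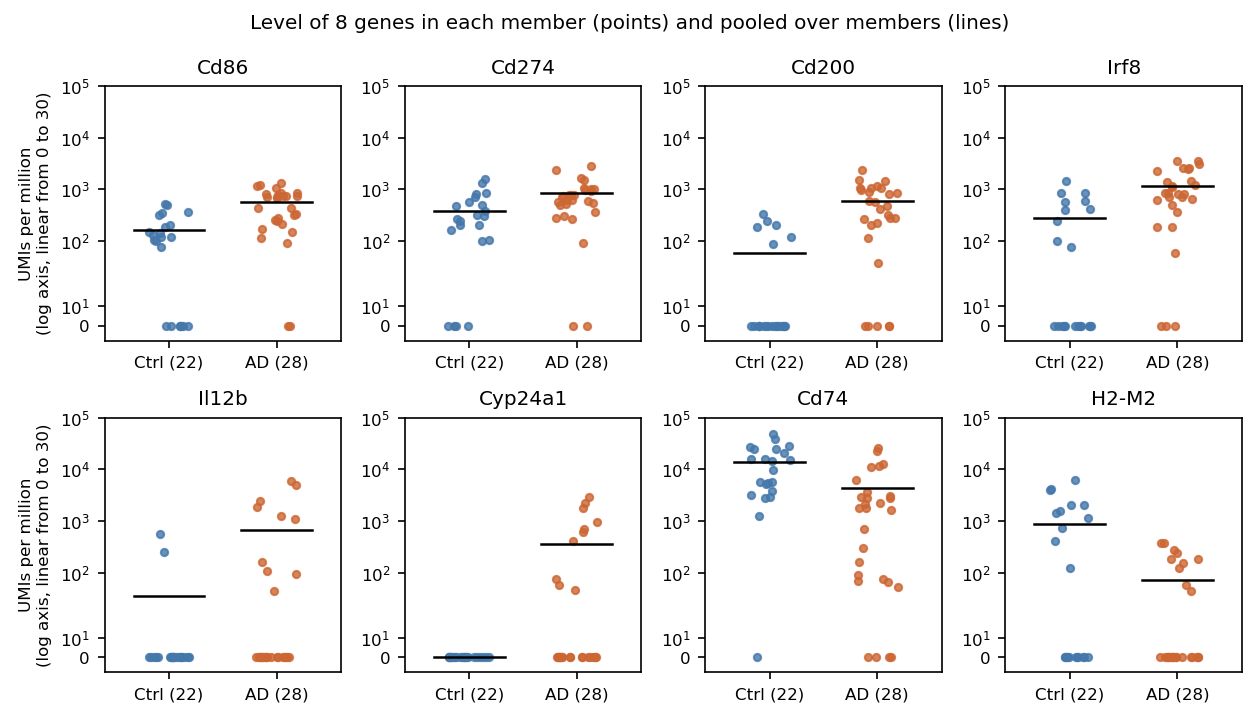
CPM of 8 genes in each mature DC (points, y axis log above 30) of the Ctrl (22) and AD (28) library, with the pooled level as a line. Cd86, Cd274, Cd200 and Irf8 reach higher in AD, Il12b and Cyp24a1 are found in 10 AD cells each, and Cd74 and H2-M2 lie lower in AD.

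Because the AD cells were deeper, the share with a UMI was recomputed after each cell was drawn down at random to 4000 UMIs, a depth chosen after seeing the data, which kept 22 Ctrl and 27 AD cells. Cd86 was then found in 40.9% of Ctrl and 81.5% of AD cells (68.2% and 92.9% before), and Cd200 in 13.6% and 70.4% (27.3% and 82.1% before). At 1000 UMIs Cd86 was found in 22.7% and 40.7% and Cd200 in 4.55% and 40.7%. T cells, which should have little Cd86, had a UMI of it in 4.97% of Ctrl and 2.83% of AD cells, at median depths of 3234.5 and 5916 UMIs, and in 4.57% and 2.16% at 4000 UMIs. For Cd200 these T cell shares were 5.13% and 12.5%, and 6.29% and 8.99% at 4000 UMIs.

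Genes of MHC class II presentation were lower in AD on balance, and this depended on which cells were counted. Of 15 genes 11 passed, and 1 was at least 2-fold higher and 5 lower, with a median of -0.95. Cd74, the invariant chain that escorts class II molecules, had 0 to 336 UMIs in Ctrl cells (median 92) and 0 to 360 in AD cells (median 25), and the cells overlapped over nearly the whole range. It stood at 13874 CPM in Ctrl and at 4296 CPM in AD (log2 ratio -1.69, -1.78 to -1.61), and the ratio was -1.83 in the cells with all 4 rule genes. H2-Ab1 and H2-Eb1, which encode class II chains, were at 4687 and 1585 CPM and at 4983 and 2376 CPM. H2-Aa was at 6934 and 4032 CPM, and its log2 ratio of -0.78 was -0.32 in the cells with all 4 rule genes. The peptide loading genes H2-DMb1 and H2-DMb2 reached 100 CPM in Ctrl alone, so they had to be lower to pass. Their log2 ratios were -2.03 and -1.28, but 0.022 and 2.25 in the cells with all 4 rule genes, where both are rare. Lgmn, a lysosomal protease, was the gene that was higher, at 120 and 254 CPM. In the cells with all 4 rule genes Lgmn (0.78), H2-Ab1 (-0.63) and H2-Eb1 (-0.71) had log2 ratios under 2-fold.

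Genes of class I presentation lay closer. Of 13 genes 10 passed and all 10 lay within 2-fold, with a median of -0.05, among them B2m at 3718 and 4086 CPM and H2-K1 at 1405 and 2117 CPM. H2-M2, a class I gene outside the classical set on chromosome 17 (37480851 to 37483552, GRCm38), was an exception outside that list. It had 0 to 33 UMIs in Ctrl cells (median 0.5) and 0 to 7 in AD cells (median 0). No AD cell had over 7 UMIs, while 8 Ctrl cells had at least 10. Its level was 878 CPM (753 to 1018) in Ctrl and 71.7 CPM (48.7 to 102) in AD (log2 ratio -3.60), and the ratio was -4.17 in the cells with all 4 rule genes. T cells had 0 UMIs of H2-M2 in both libraries. All other kept barcodes pooled were lower in AD too, at 4.48 CPM of H2-M2 in Ctrl and 0.948 CPM in AD. Mature DCs held 175 of the 645 H2-M2 UMIs in kept barcodes in Ctrl (27.1%) and 31 of 89 in AD (34.8%).

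**Figure D4:**
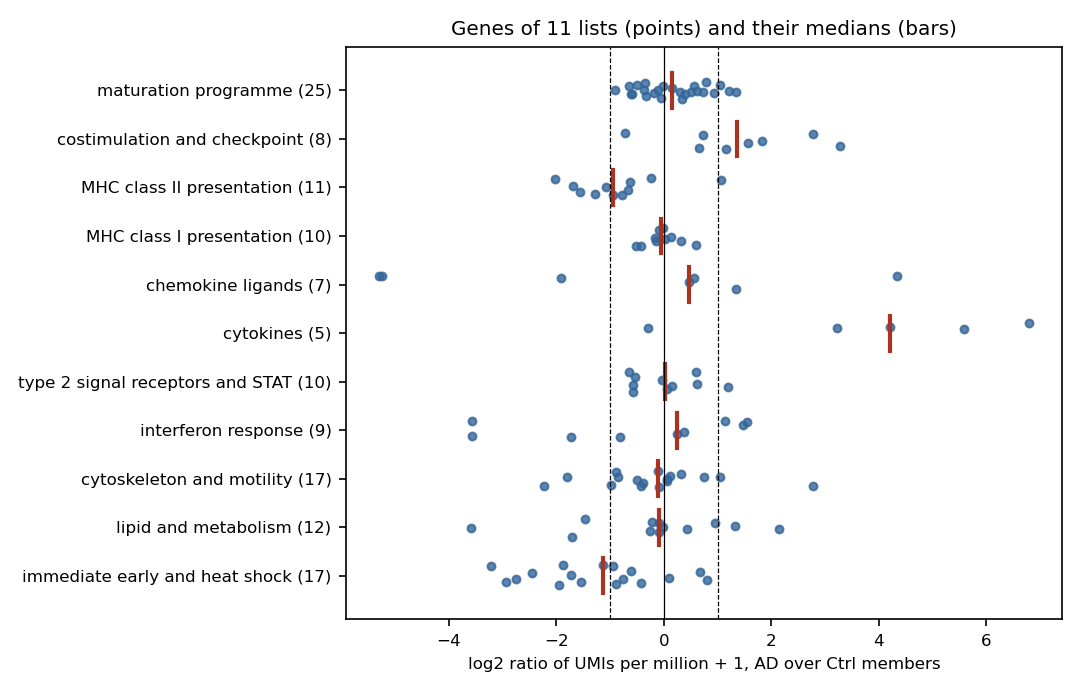
log2 ratio of AD over Ctrl (x axis) for the genes of 11 lists that passed 100 CPM in either library, 1 point a gene, with the number of genes in brackets. Bars are list medians, the solid line is 0 and dashed lines are 2-fold. Genes that reached 100 CPM in 1 library alone had to differ to pass and are included in the medians. The median of costimulation (1.36) lies right of 0, and those of MHC class II presentation (-0.95) and immediate early genes (-1.13) lie left of it.

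Few cytokine genes passed the level filter, and the number of AD cells that held them differed by gene. Of 19 genes 5 passed, and 4 were at least 2-fold higher in AD, with a median of 4.21, or 3.22 with Il6 at its lower bound. These 4 genes (Il12b, Il6, Areg and Vegfa) reached 100 CPM in AD alone, so they had to differ to pass, and the count and median carry no weight. Il12b had 7 UMIs in 2 Ctrl cells and 288 UMIs in 10 AD cells, with 0 to 4 and 0 to 129 UMIs per cell and medians of 0. It stood at 35.1 CPM (14.1 to 72.4) in Ctrl and 666 CPM (592 to 748) in AD (log2 ratio 4.21, 3.18 to 5.57). All 10 AD cells with Il12b had all 4 rule genes. In AD, mature DCs held 288 of the 321 Il12b UMIs in kept barcodes (89.7%, 85.9 to 92.8%), and in Ctrl 7 of 149. No UMI of Il12b was found in 132 AD macrophages or in 353 AD T cells. A floor of 3 counts allows shares of cells with a UMI of up to 2.27% and 0.850%, and sets no limit on cells that express the gene.

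Il6 had 0 UMIs in Ctrl and 48 in 14 AD cells, at least 7.38-fold higher in AD when Ctrl is set to a floor of 3 UMIs over its cells (15.1 CPM). Other kept barcodes had 127 and 578 CPM of Il6. Areg, a ligand of the EGF receptor, had 1 Ctrl UMI and 125 AD UMIs in 5 cells, of which 58.4% were in a single cell, so its log2 ratio of 5.59 had an interval of 3.34 to 11.16. Vegfa had 2 UMIs in Ctrl and 44 in 6 AD cells (log2 ratio 3.22, 1.40 to 6.43). In the cells with all 4 rule genes Vegfa had 1 and 23 UMIs and was below the filter. Il1b, by contrast, stood at 2042 and 1675 CPM. Il10 had 0 and 1 UMIs, and Il23a, which pairs with Il12b in IL23, 0 and 2.

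Chemokine ligands other than Ccl22 differed in both directions. Of 15 genes 7 passed, 2 at least 2-fold higher (Ccl5 and Cxcl2) and 3 lower (Ccl4, Cxcl9 and Cxcl10), with a median of 0.46 that was -0.59 when Ccl22 was left out of the rule. Cxcl2, which attracts neutrophils, had 0 to 4 UMIs in Ctrl cells and 0 to 115 in AD cells, and stood at 45.2 and 937 CPM (log2 ratio 4.34, 3.44 to 5.51). Its relative Cxcl1, outside the list of 15, had 20.1 and 620 CPM (log2 ratio 4.88, 3.58 to 6.84). Cxcl1 and Cxcl2 were each found in 4 Ctrl and 15 AD cells. Other kept barcodes were higher in AD too, at 147 and 678 CPM of Cxcl2 and at 218 and 1222 CPM of Cxcl1. Cxcl10 and Cxcl9, ligands of Cxcr3 induced by interferon, had 26 and 25 UMIs in Ctrl and 1 each in AD, but 17 and 21 of the Ctrl UMIs were in a single cell each. With all deposited barcodes both log2 ratios changed sign, to 0.19 for Cxcl10 and 1.63 for Cxcl9, and in the cells with all 4 rule genes Cxcl9 was below the filter. Ccl4 stood at 437 and 116 CPM. Ptgs2 (COX-2), singled out after its values were seen, had 0 to 19 UMIs in Ctrl cells and 0 to 225 in AD cells, at 191 and 2318 CPM. Macrophages (333 and 2681 CPM) and other MHC class II leukocytes (804 and 4282 CPM) were likewise higher in Ptgs2 in AD.

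Among the 15 other trafficking receptors a single gene passed, Gpr183, a receptor for oxysterols that positions DCs, at 427 and 490 CPM. Cxcr4 was below the filter, with 3 UMIs in 3 Ctrl cells and 37 in 15 AD cells.

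Cyp24a1, which encodes the enzyme that degrades active vitamin D and is a classical target of the vitamin D receptor, lies on chromosome 2 at 170482708 to 170497145 on the minus strand (GRCm38). No Ctrl mature DC had a UMI of it, and 10 of 28 AD cells had up to 45 each. The AD level was 352 CPM (298 to 412), at least 23.4-fold higher than the floor of 3 Ctrl UMIs. In the other kept AD barcodes it was 191 CPM, in other MHC class II leukocytes 185 CPM, in macrophages 12.7 CPM and in T cells 24.5 CPM, while in Ctrl all other kept barcodes had 0.190 CPM. At 4000 UMIs per cell it was found in 29.6% of AD mature DCs (35.7% before) and 2.88% of AD T cells (3.68% before). Vdr, the receptor itself, had 7 UMIs in 2 Ctrl cells and 44 in 17 AD cells, or 35.1 and 102 CPM. Of its 7 Ctrl UMIs 6 were in the keratinocyte-rich cell, and without that cell and the B cell-rich cell Vdr had 1 UMI in Ctrl and 44 in AD (5.65 and 108 CPM). Of the 10 AD cells with Cyp24a1, 8 also had Vdr, 10 had Ptgs2 and 3 had Il12b. Over all 28 AD cells, 17 had Vdr, 17 had Ptgs2 and 10 had Il12b. Kit was likewise found in all 10 cells with Cyp24a1, and in 22 of the 28. Of the 8 genes of the vitamin D list 3 passed, Cyp24a1 and Vdr higher and Cd14 within 2-fold (140 and 132 CPM), with a median of 1.51, which is the ratio of Vdr. For Cd14, 25 of 28 Ctrl UMIs and 37 of 57 AD UMIs were in a single cell each, and without those cells it stood at 15.8 and 47.2 CPM.

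**Figure D5:**
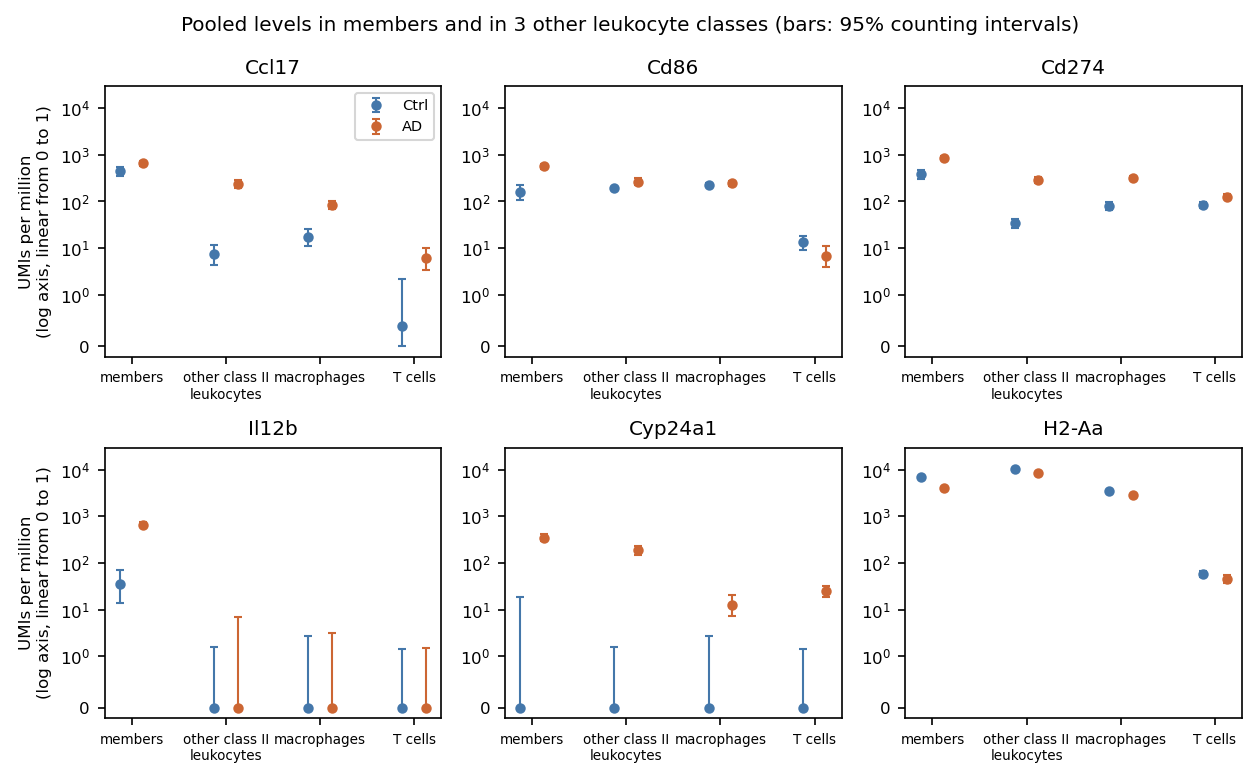
Pooled CPM (y axis, log above 1) of 6 genes in mature DCs (members) and in 3 other leukocyte classes of the Ctrl and AD libraries, with 95% counting intervals. Ccl17, Cd86 and Cd274 are highest in AD mature DCs, Il12b is at 0 in the other 3 classes, and H2-Aa is highest in the other MHC class II leukocytes.

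Genes of DC lineages were compared next. The DC core list (9 genes, 5 passing) had 0 genes past 2-fold and a median of -0.05. Irf8, a factor of cDC1 and plasmacytoid cells, had 0 to 24 UMIs in Ctrl cells (median 0) and 0 to 62 in AD cells (median 14). It was found in 10 of 22 and 25 of 28 cells and stood at 281 CPM (212 to 365) and 1178 CPM (1077 to 1284). The log2 ratio was 2.06 (1.67 to 2.49), and in the cells with all 4 rule genes the levels were 480 and 1359 CPM. The other cDC1 genes lay closer, lower or near 0. Xcr1 had 0 and 1 UMIs, Clec9a 1 and 5, Batf3 stood at 166 and 227 CPM, and Naaa was lower, with 27 UMIs in 4 Ctrl cells and 7 in 2 AD cells. The direction of Naaa turned in the cells with all 4 rule genes, with 0 and 6 UMIs, and without Ccl22 in the rule, with a log2 ratio of 0.49. The cDC1 list thus had 3 of 11 genes passing, 1 higher and 1 lower, with a median of 0.45.

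The cDC2 list had 7 of 13 genes passing, 1 higher and 3 lower, with a median of -0.64. Irf4, a factor of cDC2 that supports their migration, was the gene that was higher, at 35.1 and 160 CPM and in 6 and 19 cells. The B cell-rich cell held 19 of its AD UMIs. Without that cell and the keratinocyte-rich cell Irf4 was at 39.5 and 123 CPM. Mgl2, Cd209d and Klf4 were lower, but not in every choice of cells. Cd209d had 25 UMIs in 5 Ctrl cells and 2 in 1 AD cell, none of them in a cell with all 4 rule genes. Mgl2 had 45 and 41 UMIs, 34 of the latter in 1 AD cell, and it was higher in AD in the cells with all 4 rule genes, with 1 and 40 UMIs. Klf4 had 36 and 16 UMIs, and without the keratinocyte-rich and the B cell-rich cell it had 15 in each library and was below the filter, at 84.7 and 37.0 CPM.

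Langerhans cell genes differed by gene. Cd207 (langerin) was below the filter, at 85.3 CPM in Ctrl, with 17 UMIs in 6 Ctrl cells, 0 to 7 per cell, and 0 in AD, where a count of 0 allows up to 3 UMIs (6.94 CPM). Of the 320 other MHC class II leukocytes of Ctrl 25.3% had a UMI of Cd207, and of the 44 in AD 9.09% (24.9% and 7.69% at 4000 UMIs), against 0.166% and 0% of T cells. The adhesion gene Epcam had 105 and 11.6 CPM, but without the keratinocyte-rich and the B cell-rich cell it was below the filter, at 90.4 and 9.86 CPM. Mfge8, which bridges apoptotic cells to phagocytes, had 196 and 16.2 CPM. Runx3 and Cd24a were at least 2-fold higher in AD, at 171 and 359 CPM and at 50.2 and 130 CPM (for Runx3, 192 and 372 CPM and under 2-fold without the keratinocyte-rich and the B cell-rich cell), so that 2 of the 4 genes of 7 that passed were higher and 2 lower, with a median of -1.01. Aldh1a2, which makes retinoic acid and lies on chromosome 9 (71215789 to 71296243, GRCm38), had 22 UMIs in 3 Ctrl cells and 0 in AD, at least 15.9-fold lower. It was the single gene of 9 in the retinoid list to pass, and it passed through Ctrl alone.

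Genes of TSLP, IL4 and other type 2 signals and their JAK and STAT proteins were higher about as often as all compared genes. Of the 1754 compared genes, 10.5% were at least 2-fold higher and 12.3% lower. Of 21 genes 10 passed, 1 was at least 2-fold higher and 0 lower, with a median of 0.02. The gene that was higher was Cish, a feedback inhibitor induced by STAT5, at 55.2 and 127 CPM, which passed through AD alone. Stat3 stood at 366 and 405 CPM, Jak1 at 130 and 136 CPM, and Jak2 at 532 and 368 CPM. The TSLP receptor gene Crlf2 was below the filter, at 40.1 and 48.6 CPM, and so was Il4ra, with 7 UMIs in 7 Ctrl cells and 41 in 20 AD cells. Without the keratinocyte-rich and the B cell-rich cell Il4ra passed the filter, at 33.9 and 101 CPM, and was past 2-fold.

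Interferon response genes divided, with 9 of 20 passing, 3 higher, 3 lower and a median of 0.25 that changed sign with the choice of cells. Irf1 (176 and 518 CPM), Ifitm3 (146 and 407 CPM) and Gbp5 (80.3 and 178 CPM) were higher. Bst2 was lower, at 171 and 50.9 CPM, as were Ifit1 and Rsad2, each with 35 UMIs in Ctrl and 6 in AD, spread over 4 and 5 Ctrl cells. These 3 lower genes reached 100 CPM in Ctrl alone and Gbp5 in AD alone, so they had to differ to pass.

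Immediate early and heat shock genes, which respond to stress and to tissue dissociation, were more often past 2-fold as lower than as higher in AD. All 17 passed, 0 were at least 2-fold higher and 9 lower, with a median of -1.13. Of the 17, 5 reached 100 CPM in 1 library alone and so had to differ to pass, which weakens the count and the median. Egr1 had 63 of its 72 Ctrl UMIs in 1 cell. Without the keratinocyte-rich and the B cell-rich cell it was below the filter, at 50.8 and 32.1 CPM. Hspa1a had 0 to 106 UMIs in Ctrl cells (median 4) and 0 to 114 in AD cells (median 0), at 1746 and 319 CPM, and 114 of the 138 AD UMIs were in 1 cell. Fos stood at 1280 and 136 CPM, but 160 of its 255 Ctrl UMIs were in the keratinocyte-rich cell, and in cells with all 4 rule genes the levels were 284 and 124 CPM. Junb and Jun lay the other way, at 1024 and 1793 CPM and at 462 and 738 CPM. In the cells with all 4 rule genes Jun was past 2-fold, at 195 and 820 CPM, and without the keratinocyte-rich and the B cell-rich cell it was at 294 and 754 CPM. The same heat shock gene was lower in AD in macrophages (2985 and 721 CPM) and T cells (597 and 155 CPM), and the part of handling in these differences was not tested.

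Of the 18 cytoskeleton and motility genes 17 passed, 2 higher and 2 lower, with a median of -0.12. Vim, which encodes the intermediate filament vimentin, had 3 to 337 UMIs in Ctrl cells (median 19) and 0 to 99 in AD cells (median 6). It stood at 4531 CPM (4240 to 4836) in Ctrl and 965 CPM (874 to 1062) in AD (log2 ratio -2.23), and the ratio was -2.47 in the cells with all 4 rule genes. Of the 591 Ctrl UMIs of Vim in the latter cells, 337 were in 1 cell. Vim was at closer levels in macrophages (2184 and 2731 CPM), T cells (1968 and 1770 CPM) and other MHC class II leukocytes (4300 and 3961 CPM). Adam8, a sheddase, was lower at 221 and 62.5 CPM, and Rhoc, a GTPase of cell motility, and Adam19 were higher, at 35.1 and 245 CPM and at 65.2 and 136 CPM. These 3 genes passed through 1 library alone, Adam8 through Ctrl and the others through AD. Actb stood at 18440 and 13790 CPM.

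Lipid and metabolism genes had 12 of 22 passing, 2 higher and 3 lower, with a median of -0.09. The metallothioneins Mt1 (115 and 516 CPM) and Mt2 (60.2 and 153 CPM) were higher, and other kept barcodes had 1171 and 8105 CPM of Mt1. Apoe, a carrier of lipids, was among the lower genes, at 512 and 41.6 CPM. For Apoe 67 of 102 Ctrl UMIs were in 1 cell, and with all 4 rule genes its levels were 62.2 and 46.0 CPM. Hmgcs1, an enzyme of sterol synthesis, was among the 12 genes with the lowest ratios, with 44 UMIs in 11 Ctrl cells and 4 in 4 AD cells. Of the 21 genes of antigen uptake and myeloid receptors 4 passed, 0 higher and 1 lower (Lyz2, 321 and 60.1 CPM), with a median of -0.45. In the cells with all 4 rule genes Lyz2 had 2 and 12 UMIs and its direction turned. Of the 12 cell cycle genes 2 passed, 0 higher and 1 lower (Pcna, 151 and 57.8 CPM). In the cells with all 4 rule genes Pcna was below the filter, at 97.7 and 40.6 CPM.

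Among genes found in at least 5 cells of the library where they were higher, the 12 highest ratios belonged to Cyp24a1, Helz2, Il6, Areg, Hopx, Cxcl1, Jdp2, Cxcl2, AA467197, Il12b, Ramp3 and Kit. The places of Cyp24a1, Helz2 and Il6, each with 0 UMIs in Ctrl, depend on the 1 CPM added before the ratio, and for these genes only the lower bounds hold. Helz2, a helicase that coactivates nuclear receptors, had 0 UMIs in Ctrl and 66 in 18 AD cells, at least 10.1-fold higher. Ramp3, a partner of calcitonin-family receptors, had 0 to 2 UMIs in Ctrl cells and 0 to 40 in AD cells (median 7), at 40.1 and 643 CPM, while T cells had 80.5 and 340 CPM. Jdp2, a relative of Jun and Fos, had 0 to 2 and 0 to 23 UMIs, at 15.1 and 389 CPM, and was higher in AD in macrophages too, at 134 and 648 CPM. Kit, a receptor tyrosine kinase, was found in 2 Ctrl and 22 AD cells, at 10.0 and 164 CPM. Hopx had 1 UMI in Ctrl and 81 in 17 AD cells.

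The 12 lowest belonged to Krt17, Cxcl10, Dmkn, Bgn, Lgals7, Cd209d, Hmgcs1, Col1a1, Col1a2, Col3a1, Ccnd1 and H2-M2. Krt17, Dmkn and Lgals7, genes of keratinocytes, had 88 of 93, 20 of 24 and 61 of 66 Ctrl UMIs in 1 cell. Bgn had 15 of its 21 Ctrl UMIs in 1 cell. Without the keratinocyte-rich and the B cell-rich cell Bgn was below the filter, at 33.9 and 2.47 CPM. Ccnd1 stood at 341 and 25.4 CPM, but was below the filter in the cells with all 4 rule genes, at 62.2 and 18.9 CPM. The collagen gene Col1a1 was spread over 16 Ctrl cells at 1 to 3 UMIs each, at 120 and 4.63 CPM, and T cells, which do not make collagen, had 403 and 10.4 CPM of Col1a1. Col3a1 stood at 115 and 6.94 CPM, against 339.5 and 4.82 CPM in T cells. The collagen levels of mature DCs were thus below those of T cells in 3 of these 4 values.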

How the data were processed

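Live single cells of dissociated mouse dorsal skin were captured with a droplet kit (10x Genomics, 3′ chemistry), 1 library per condition. The authors aligned the reads to mm10 with Cell Ranger, whose version is 3.1.0 per the labels and 5.0.0 per the file headers, and deposited UMI counts per gene and barcode, with Seurat 5.0 also named. These counts were used as deposited. They were read with pandas 2.3.3 and numpy 2.4.6, and intervals came from scipy 1.17.1. Kept barcodes had between 200 and 6000 genes, with mitochondrial UMIs no higher than 10% (11399 and 8179 barcodes), and 1199 and 599 were removed. UMIs were summed over the cells of a library, divided by their total to give CPM, and compared as log2(CPM + 1) for genes at 100 CPM or more in either library. A difference of 2-fold was counted. The conditions have 1 library each, so no test, SD or p-value was computed, and a lower CPM in a pool can reflect fewer cells with the transcript or less per cell. The pooling was also run on simulated data, whose outcome is not given here.

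The members and the 29 gene lists were chosen with earlier results of these data known. Named genes are those of the lists, the 12 highest and 12 lowest ratios among genes with a UMI in at least 5 cells of the library where they were higher, and the 20 genes highest over all other kept barcodes. Doublets were not removed. Scrublet, in scanpy 1.11.5, called 3.87% of Ctrl barcodes and 1 AD barcode, so it did not work in AD, and called 0 of the mature DCs. Gene positions are from GENCODE M21 (GRCm38), whose identifiers matched 32475 of 33904 genes, and promoter bases from RefSeq (GRCm38.p6). Alternatives covered the barcode filter, the rule's threshold and genes, the CPM minimum, the fold, a mean over cells, and leaving out the cell with the most UMIs. Seurat objects and cell type calls of the study were not used here. Some members of the lipid and metabolism list are not reported here.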

Additional observations from a re-analysis of the deposited data

How the results depend on the processing

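No paired analysis was possible because each condition has 1 library. The share of kept barcodes kept its value within its counting interval under every alternative tried, and the counts of genes past 2-fold (185 higher, 216 lower) stayed within 1.5 times except where the level or the fold itself was changed, with 373 and 535 at 50 CPM, 83 and 91 at 200 CPM, and 77 and 97 at 3-fold. The genes behind these counts changed more: 136 of the 185 and 132 of the 216 were also past 2-fold with all deposited barcodes, and 146 and 125 in the cells with all 4 rule genes. Over these alternatives the median of costimulation genes ran from 1.01 to 1.67, of MHC class I from -0.27 to 0.26, of cytoskeleton from -0.34 to -0.02, of type 2 signals from -0.21 to 0.22 and of lipid genes from -0.24 to 0.15. MHC class II (-0.95) went to -0.60 with all deposited barcodes and -0.50 in the cells with all 4 rule genes. Chemokine ligands (0.46) went to -1.81 with a minimum of 3 UMIs, -0.28 at 50 CPM and -0.59 without Ccl22 in the rule. The interferon list (0.25) went to -0.51 with a minimum of 6 UMIs, -0.56 for the mean of each cell's CPM, -0.36 without the cell with the most UMIs, -0.28 at 50 CPM, -0.29 with all 4 rule genes and -0.39 without the keratinocyte-rich and B cell-rich cells. Immediate early genes (-1.13) went to -0.82, -1.51 and -1.73 with a minimum of 6, a minimum of 3 and no Ccl22, and to -0.75, -0.87 and -0.94 without the cell with the most UMIs, with all 4 rule genes and without those 2 cells. The maturation median was -0.16 with all 4 rule genes. Among named genes past 2-fold, those that changed sign were, with all deposited barcodes, Cxcl10 (0.19), Cxcl9 (1.63), Dmkn (0.48), Krt14 (2.08) and Lgals7 (0.78). With all 4 rule genes they were H2-DMb1 (0.022), H2-DMb2 (2.25), Krt14 (0.56), Lyz2 (0.84), Mgl2 (3.47) and Naaa (4.11). Naaa was 0.49 without Ccl22 in the rule. Krt14 was 0.87 with a minimum of 6 UMIs, 1.00 without the cell with the most UMIs, 1.00 without the 2 cells, and 0.30 without the cell with the most Krt14. The cause was not tested. The alternatives with all 4 rule genes and without the 2 cells were chosen after seeing the data. At 100 CPM a gene rests on about 19.9 UMIs in Ctrl and 43.2 in AD, so a gene absent from 1 library may lie under its floor.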
